A study of Mus musculus with 2 samples.

Results

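Neuroblasts with low Calb2 were 377 cells of the mouse dentate gyrus, 160 in library 1 and 217 in library 2. They were chosen by unique molecular identifiers (UMIs), the tags that count captured messenger RNAs. A cell entered the neurogenic gate with at least 6 UMIs over Sox11, Neurod1, Igfbpl1, Eomes, Dcx and Mfap4. It also had at most 2 UMIs in each of 4 sets that mark other cells, which were Pdgfra with Gpr17 and Lhfpl3, P2ry12 with Cx3cr1, Cldn5 with Flt1, and Reln. Members then had under 10 UMIs of 6 mitotic genes, under 5 of 5 S-phase genes, at most 2 of Eomes, Tac2 and Mfap4, and at most 1 of Calb2. They made up 1.94% of the 8255 cells kept in library 1 (exact 95% interval 1.65 to 2.26) and 2.59% of the 8381 kept in library 2 (2.26 to 2.95). Of the 1296 and 1350 cells inside the gate, they were 12.3% and 16.1%. Intervals cover counting error only.

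New granule neurons form in the dentate gyrus throughout life. Radial glia-like stem cells give rise to intermediate progenitors marked by Eomes, and these give rise to neuroblasts that switch on the migration protein doublecortin (Dcx). Calretinin, the calcium-binding protein encoded by Calb2, is made for a short time by immature granule neurons just after their last division. Mature granule neurons replace it with calbindin, encoded by Calb1.

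The tissue came from mice at postnatal day 30, with 4 cKO mice (Nestin-Cre Tg, Phf2flox/flox) and 4 control mice (Nestin-Cre Tg, Phf2+/+), pooled into 1 library per genotype. Both groups carried the Cre transgene, which the Nestin promoter drives in neural stem cells and their progeny. The study concerns Phf2, a histone demethylase gene of the KDM7 family, and the departure of stem cells from quiescence. No label tied either library to a genotype, so no cKO value could be set against a control value, and values are given for library 1 and library 2. The kept cells had a median of 8186 UMIs in library 1 and 7335 in library 2, and 23 cell barcodes were kept in both libraries.

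The members were set beside other cells of the same libraries. Neuroblasts with Calb2 passed the same rule but had 2 or more Calb2 UMIs (320 cells in library 1 and 406 in library 2). Eomes progenitors were non-dividing gated cells with over 2 UMIs of Eomes, Tac2 and Mfap4 (553 and 468 cells). Granule neurons lay outside the gate, and were cells with Prox1 and at least 3 UMIs each of mature granule neuron markers and of Snap25 with Syt1 (22 and 50 cells). Members were shallower than the other gated classes, with a median of 6749 UMIs in library 1 and 6505 in library 2, against 9098.5 and 7572 in neuroblasts with Calb2 and 11242 and 9621 in Eomes progenitors. Scrublet marked 4 members as doublets, and these stayed in.

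The label was checked against Dcx, Sox11, Neurod1 and Igfbpl1, which chose the cells and are described without a test. Dcx (ENSMUSG00000031285, protein-coding, minus strand of chromosome X, 143855842 to 143933311 in mm10) binds microtubules in migrating neurons. It stood at 448 CPM (UMIs of the gene per 1000000 UMIs summed over the class) in library 1 and 259 in library 2 among members, against 861 and 767 CPM in neuroblasts with Calb2. Sox11 (ENSMUSG00000063632, minus strand of chromosome 12, 27334264 to 27342574), a transcription factor of immature neurons, stood at 2063 and 1206 CPM, against 4102 and 3958 CPM. Neurod1 (ENSMUSG00000034701, minus strand of chromosome 2, 79452521 to 79456751), a basic helix-loop-helix factor that granule neurons need to mature, stood at 949 and 605 CPM, against 1882 and 2057 CPM. Igfbpl1 (ENSMUSG00000035551, minus strand of chromosome 4, 45809468 to 45826923) stood at 1324 and 720 CPM, against 2507 and 2207 CPM. For each marker both libraries of members lay below both libraries of neuroblasts with Calb2, and library 2 lay below library 1.

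The shortfall lay in the number of cells that carried a marker as well as in the summed level. Dcx was found in 71.3% of members of library 1 and 60.4% of library 2, against 95% and 92.1% of neuroblasts with Calb2. Cells with at least 20 UMIs of the microglial C1q genes, which should lack Dcx, had a Dcx UMI in 3.46% of cells in each library at median depths of 7921 and 7056 UMIs. All 4 markers were found in 56.3% and 42.9% of members (90 of 160 and 93 of 217 cells), against 93.1% and 89.9% of neuroblasts with Calb2. The members thus went against their label in part, since many lacked at least 1 of the neuroblast markers in both libraries.

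**Figure D1:**
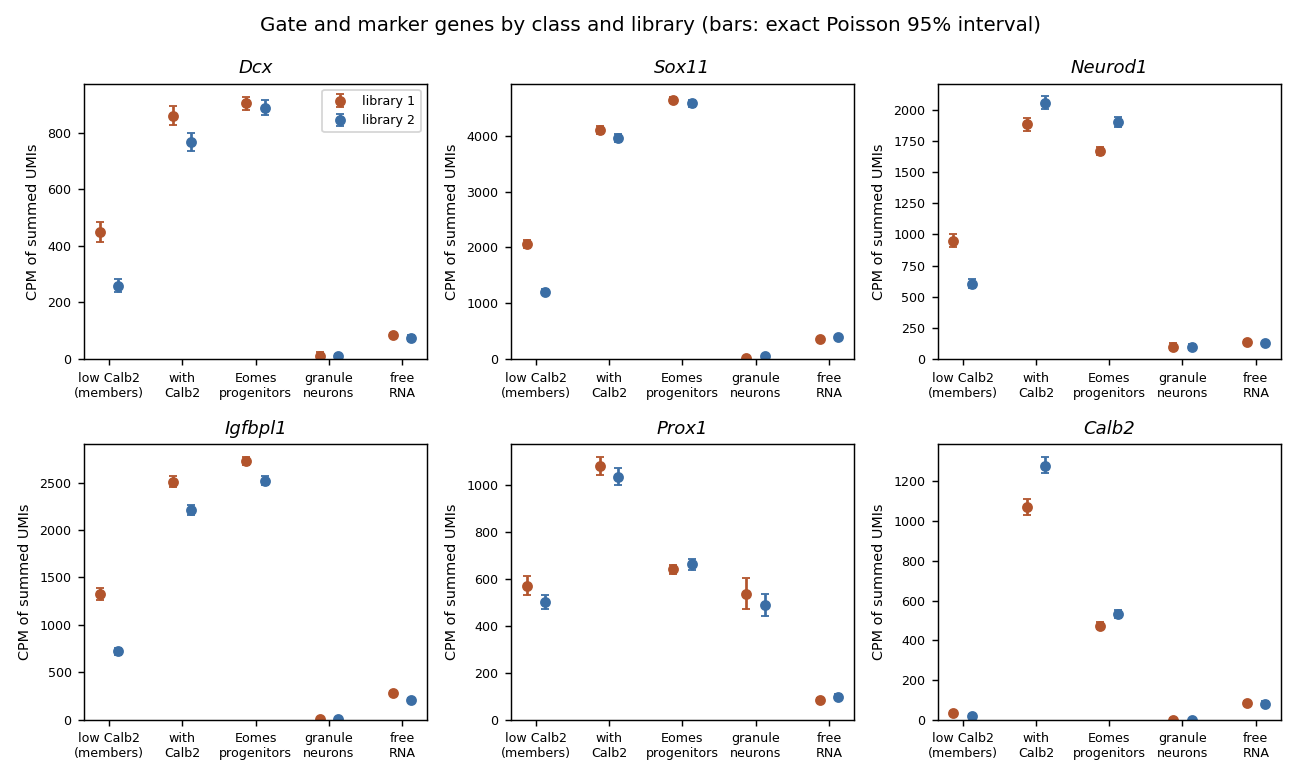
CPM of summed UMIs (vertical axes, linear) of 6 genes in members, in 3 comparison classes and in free RNA (barcodes under 100 UMIs), with 1 point per library and exact Poisson 95% intervals. Members sit between neuroblasts with Calb2 and granule neurons for Dcx, Sox11, Neurod1 and Igfbpl1, and have the lowest Calb2 of the 3 gated classes by construction.

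Calb2 (ENSMUSG00000003657, minus strand of chromosome 8, 110137502 to 110168210) was at 0 in 116 of 160 members of library 1 and 174 of 217 of library 2. It stood at 32.6 and 20.3 CPM in members, below the 85.6 and 81.2 CPM of free RNA, and at 1070 and 1280 CPM in neuroblasts with Calb2. Just inside the limit, the 44 and 43 members with 1 Calb2 UMI had medians of 6151.5 and 3484 UMIs, and Igfbpl1 at 2354 and 1748 CPM. Just outside it, the 36 and 51 cells with 2 Calb2 UMIs had medians of 6399 and 4464 UMIs, and Igfbpl1 at 2625 and 2360 CPM. Members with no Calb2 UMI were a different mixture, with Igfbpl1 at 1050 and 578 CPM and medians of 7171 and 7200.5 UMIs. At the lower edge of the gate, the 18 and 27 members with a gate sum of exactly 6 had Igfbpl1 at 47.6 and 76.3 CPM, close to the 77.4 and 51.6 CPM of the 17 and 19 cells with a sum of 5 that fell outside.

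Leiden clustering of the 377 members gave 6 sub-groups, numbered by size and described here without tests. Sub-group 1 held 155 cells (78 in library 1 and 77 in library 2), sub-group 2 held 86 (42 and 44), sub-group 3 held 73 (22 and 51), sub-group 4 held 31 (12 and 19), sub-group 5 held 16 (5 and 11) and sub-group 6 held 16 (1 and 15). Sub-groups 1 and 2 were thus split evenly between the libraries, and 2 in 3 or more of the cells in sub-groups 3, 5 and 6 came from library 2. Cell numbers and RNA were distributed differently. Sub-group 3 was 19.4% of the members but gave 48.7% of their UMIs, at a median of 21971 UMIs per cell, and sub-group 1 was 41.1% of the members and gave 29.1%.

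**Figure D2:**
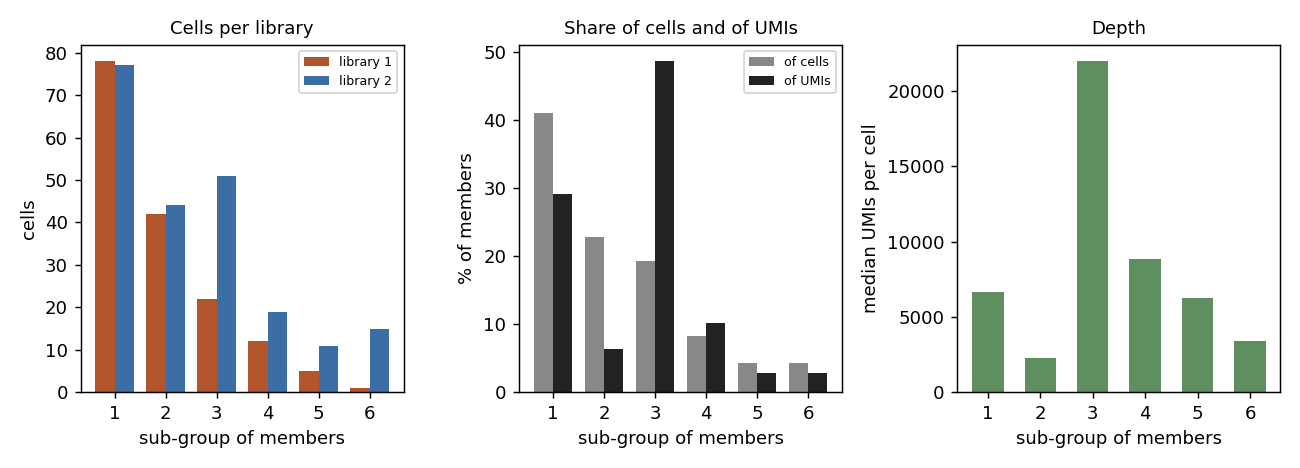
Cells per library (left), share of the members' cells and of their UMIs (middle) and median UMIs per cell (right) for the 6 sub-groups of members. Sub-group 3 holds 73 of the 377 cells and 48.7% of the UMIs.

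Sub-group 1 carried the neuroblast programme at full level. Sox11 stood at 4058 and 3943 CPM, Neurod1 at 1801 and 1804 CPM, Igfbpl1 at 2695 and 2584 CPM and Dcx at 872 and 806 CPM, levels close to those of neuroblasts with Calb2 given above. Prox1, the homeobox factor that fixes granule neuron identity, stood at 748 and 760 CPM in sub-group 1, against 1082 and 1034 CPM in neuroblasts with Calb2. Its 5 leading genes against the other members were Hbb-bs, Hba-a1, Hba-a2, Sema3c and Flrt1. Sema3c, a secreted guidance cue, was found in 76.9% and 67.5% of its cells, at 452 and 374 CPM. The haemoglobin genes that also led it came from few cells: 4 cells of sub-group 1 had over 1% haemoglobin UMIs, and the 4 highest members held 93.1% of all 18169 haemoglobin UMIs in members. It was left without a cell type name because red cell genes led it.

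Sub-group 2 was shallow, with a median of 2287.5 UMIs and 11.4% mitochondrial UMIs, and 54 of its 86 cells fell below the depth limit for naming, which is their own library's median divided by 3. It still carried the 4 markers, with Sox11 at 2069 and 2275 CPM and Neurod1 at 1245 and 1063 CPM. It was led by Hmgb2, Ppp1r14b, Serf1, Cdkn2c and Hmgn2. Hmgb2, a chromatin protein that is abundant in progenitors, stood at 473 and 808 CPM, in 17 of 42 and 21 of 44 cells. Cdkn2c encodes an inhibitor of the G1 cyclin-dependent kinases. Sub-group 2 stayed unnamed, since none of the neuroblast markers was among its 10 leading genes.

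Sub-group 3 was granule neuron-like, with all 6 granule neuron markers in at least 25% of its cells and Nrgn, C1ql3, Calb1, Grin2a and Nefl in front. Calb1 (ENSMUSG00000028222, plus strand of chromosome 4, 15881264 to 15908064) stood at 870 CPM in library 1 and 697 CPM in library 2, against 663 and 595 CPM in granule neurons, and had no UMI in sub-groups 1, 2, 4 and 5. Nrgn, which encodes the postsynaptic calmodulin-binding protein neurogranin, was in every cell of sub-group 3, at 4235 and 4327 CPM. The neuroblast markers were low: Igfbpl1 stood at 13.3 and 10.4 CPM and Dcx at 32.2 and 19.9 CPM. Neurod1 stood at 222 and 261 CPM, above the 97.6 and 94.7 CPM of granule neurons. Sox11 stood at 119 and 107 CPM in sub-group 3, below the 363 and 393 CPM of free RNA. These cells passed the gate, which counts UMIs, at a median depth above that of any other sub-group.

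Sub-group 5 was interneuron-like, with all 6 interneuron markers and Meis2, Dlx6os1, Dlx1, Dlx2 and Gad2 in front. Dlx1 and Dlx2 are homeobox genes of GABAergic neurons, and Gad2 encodes an enzyme that makes GABA. Gad2 stood at 482 CPM in its 5 cells of library 1 and 541 CPM in its 11 cells of library 2. Dlx1 stood at 936 and 653 CPM. Of the genes that chose the cells, Dcx, found in all 16, stood at 803 and 1115 CPM, Sox11 at 3692 and 3870 CPM and Igfbpl1 at 1552 and 1529 CPM. Neurod1 had 0 UMIs in both libraries, which allows up to 98.7 CPM in library 1 and 58.7 CPM in library 2 (exact Poisson 95% limits).

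The promoters of Neurod1 and Dlx2 are shown because these genes part sub-group 5 from sub-group 1. They are from RefSeq (GRCm38.p6, minus strand, 250 bases before to 50 after the start of transcription), 5′ to 3′, at chr2:79456587-79456886 for Neurod1 and chr2:71546705-71547004 for Dlx2.
Neurod1: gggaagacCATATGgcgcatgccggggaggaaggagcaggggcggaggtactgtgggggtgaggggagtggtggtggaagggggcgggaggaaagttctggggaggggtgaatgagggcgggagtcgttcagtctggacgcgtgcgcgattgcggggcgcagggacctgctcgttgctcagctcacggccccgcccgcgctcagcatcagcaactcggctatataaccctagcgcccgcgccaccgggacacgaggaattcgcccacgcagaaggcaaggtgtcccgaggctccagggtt
Dlx2: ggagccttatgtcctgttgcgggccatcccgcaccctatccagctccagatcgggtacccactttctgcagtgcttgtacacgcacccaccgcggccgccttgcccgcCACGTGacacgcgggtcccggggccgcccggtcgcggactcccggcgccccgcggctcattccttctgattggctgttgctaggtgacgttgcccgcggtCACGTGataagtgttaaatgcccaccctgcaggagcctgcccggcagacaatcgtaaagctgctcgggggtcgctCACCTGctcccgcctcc
Capitals mark E-boxes, CANNTG, the letters that basic helix-loop-helix factors recognise, which read as CANNTG on both strands. The Neurod1 promoter held 1 and the Dlx2 promoter 3. Of all 32851 promoters in the table, 72.3% held at least 1. The form CAGATG, or its reverse CATCTG, was in neither promoter and in 17.2% of all.

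Sub-group 4 mixed stem cell and choroid plexus genes and stayed unnamed. Its leading genes were Ttr, Ecrg4, Enpp2, Hes1 and Hopx. Hopx, a homeodomain-only protein that marks quiescent stem cells, stood at 1005 and 1170 CPM, in 11 of 12 and 19 of 19 cells. Sox2 stood at 547 and 372 CPM, and all 5 radial glia-like stem cell markers and all 6 astrocyte markers were in at least 25% of its cells. Ttr, the transthyretin gene of the choroid plexus, rested on 5 cells with 1000 or more UMIs, which held 99.8% of its 29477 UMIs. Sox11 stood at 547 and 465 CPM.

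Sub-group 6 was oligodendrocyte-like and had Mal, Cldn11, Mobp and Mog, genes of the myelin sheath, among its leading genes. With 15 of 16 cells from library 2, a cell type and a feature of that library cannot be told apart. All 6 microglia markers, all 6 astrocyte markers, 4 of the 6 granule neuron markers and 3 of the 5 stem cell markers were also in at least 25% of its cells, and Neurod1 stood at 448 CPM in library 2. Scrublet marked 1 of the 16 as a doublet.

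**Figure D3:**
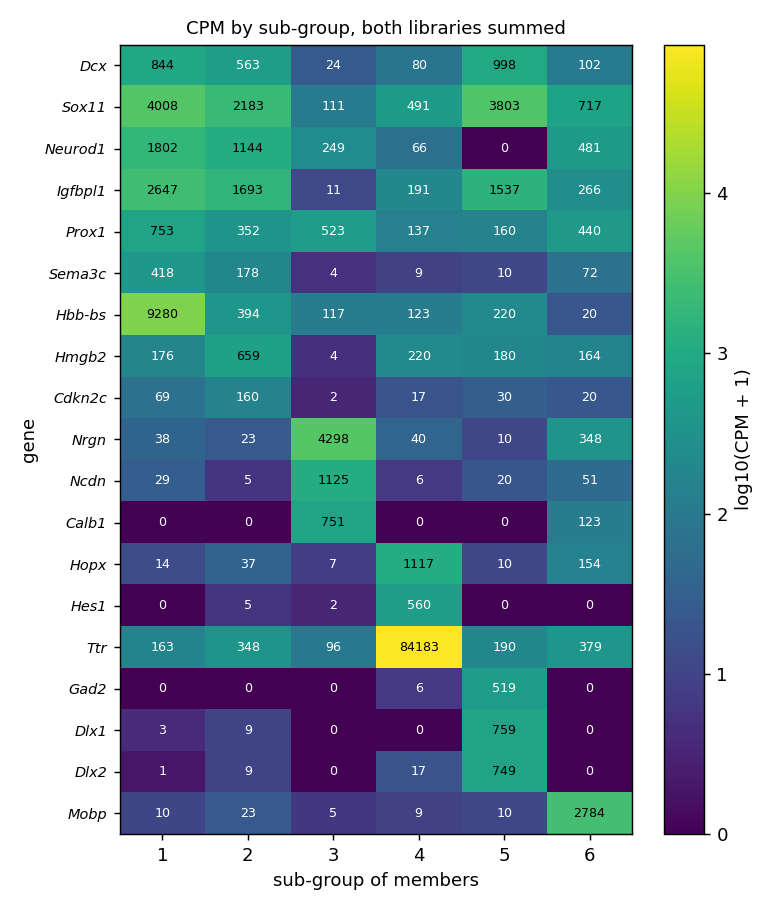
CPM of 19 genes (rows) in the 6 sub-groups of members (columns), with both libraries summed and the colour on a log10(CPM + 1) scale. Sub-groups 1 and 2 carry Dcx, Sox11, Neurod1 and Igfbpl1 together, sub-group 3 carries Nrgn, Ncdn and Calb1, and sub-group 5 carries Gad2, Dlx1 and Dlx2 with Neurod1 at 0.

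Over all members, markers of other cell types were summed in each class. All 6 interneuron markers were found in members, at 157 and 173 CPM in total, against 3 and 4 of 6 in neuroblasts with Calb2, at 2.44 and 7.06 CPM, where Dlx5 and Dlx6os1 were at 0 in both libraries. All 6 choroid plexus markers were found in members, at 1711 and 13206 CPM, against 4 of 6 (Folr1 and Prlr at 0) and 6 of 6 in neuroblasts with Calb2, at 6.62 and 485 CPM. All 6 oligodendrocyte markers were found in both classes, at 132 and 2173 CPM in members, against 848 and 1420 CPM. The 6 astrocyte markers reached 1459 and 1346 CPM in members, against 697 and 1137 CPM. Of the 5 red cell markers, 5 and 4 were found in members (Alas2 at 0 in library 2), at 12603 and 571 CPM, against 5 and 5 at 1834 and 1190 CPM. The comparisons below are given with all members and without cells with granule neuron, interneuron, choroid plexus, stem cell or oligodendrocyte markers. Cells with red cell, astrocyte or microglia markers were not left out, and their part was not tested.

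UMIs were summed per library and class, and members were tested against neuroblasts with Calb2, to show what else differs where Calb2 is low. In the summed UMIs of members, genes of mature granule neurons and synapses were higher, and neurogenic factors and migration genes were lower. The granule neuron-like sub-group 3 gave 48.7% of those UMIs. By edgeR's quasi-likelihood test with Benjamini-Hochberg adjustment and a threshold of 0.05, 2538 of 12645 tested genes were higher in members (20.1%) and 1866 were lower (14.8%). With library as a block, the p-values rest on how far differences between classes varied between 2 libraries of different genotypes. They do not measure the spread between mice. Among cells of 5000 to 15000 UMIs alone, 866 genes passed. From these sums alone, fewer cells of a type and less RNA per cell cannot be told apart. Levels by sub-group are given for some of the genes.

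Genes of granule neuron maturation rose in 10 of 11 tested and fell in 1, with a median log2 fold of 4.46 against 0.01 over all tested genes. Ncdn, the neurite protein neurochondrin, stood at 469 and 617 CPM in members, against 28.9 and 43.3 CPM in neuroblasts with Calb2 (log2 fold 3.89 ± 0.33 SE, adjusted p = 2.82e-07, edgeR). Calb1 stood at 341 and 388 CPM in members, against 0 and 5.78 CPM. Its log2 fold was 6.89 ± 0.56 (adjusted p = 2.14e-07, edgeR). As a difference of log2 CPM with a small count added, it was 6.0 without library 1 and 9.75 without library 2. Library 1 had 0 Calb1 UMIs in neuroblasts with Calb2, so the value of 9.75 depends on the added count. Both genes were concentrated in sub-group 3, with both libraries summed. There Calb1 stood at 751 CPM and Ncdn at 1125 CPM, against 6.76 and 22.0 CPM in the other members. Rbfox3, which encodes the neuronal antigen NeuN and was named after its value was seen, was the gene of the list that fell (log2 fold -0.29).

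Genes of synapses and excitability rose in 23 of 30 and fell in 1, with a median log2 fold of 1.28. Slc17a7, the vesicular glutamate transporter of mature granule neurons, stood at 197 and 245 CPM in members, against 8.36 and 11.6 CPM (log2 fold 4.45 ± 0.32, adjusted p = 6.36e-08, edgeR). Slc17a6, the other vesicular glutamate transporter gene of the list, named after its value was seen, was the one that fell (log2 fold -1.70). Snap25, of the vesicle fusion machinery, stood at 521 and 747 CPM in members, against 107 and 109 CPM (log2 fold 2.54 ± 0.19, adjusted p = 7.13e-08, edgeR). Nrgn, another gene of the list that rose, stood at 4298 CPM in sub-group 3, against 51.8 CPM in the other members, with both libraries summed.

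Neurogenic transcription factors fell in 16 of 25 and rose in 3, with a median log2 fold of -0.77. Prox1 stood at 571 and 500 CPM in members, against 1082 and 1034 CPM (log2 fold -0.999 ± 0.114, adjusted p = 6.59e-06, edgeR). Zbtb20, a zinc finger factor of hippocampal identity, stood at 4154 and 2796 CPM in members, against 8272 and 8094 CPM (log2 fold -1.27 ± 0.14, adjusted p = 5.79e-06, edgeR). Bcl11b, a zinc finger factor of maturing granule neurons, went the other way, at 157 and 238 CPM in members, against 9.40 and 18.6 CPM (log2 fold 3.80 ± 0.29, adjusted p = 1.01e-07, edgeR). Both libraries lay on the same side for all 3 genes.

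Cytoskeleton and migration genes fell in 20 of 28 and rose in 6, with a median log2 fold of -0.74. Cd24a, a surface glycoprotein of migrating neuroblasts, stood at 268 and 154 CPM in members, against 601 and 622 CPM (log2 fold -1.58 ± 0.18, adjusted p = 6.78e-06, edgeR). Mapre3, a microtubule end-binding protein, was among the 6 that rose, at 100 and 121 CPM in members, against 49.4 and 41.4 CPM. Adhesion and guidance genes fell in 12 of 24 and rose in 5, and the rise was close to the 20.1% of all tested genes. The receptor genes Robo2 and Epha5 were among the 5 that rose, with Robo2 at 54.9 and 69.1 CPM in members, against 4.53 and 4.82 CPM.

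Stem and progenitor genes rose in 11 of 22 and fell in 5. Fabp7, a lipid-binding protein of radial glia, stood at 180 and 204 CPM in members, against 49.1 and 45.3 CPM (log2 fold 2.02 ± 0.14, adjusted p = 4.7e-08, edgeR). Sub-group 4 held much of it, at 1728 and 1398 CPM of Fabp7. Cell cycle genes outside the gate rose in 3 of 24 and fell in 5, close in all to the 34.8% of all tested genes that were called. The cyclin gene Ccnd2 was among the 3 that rose, at 298 and 328 CPM in members, against 146 and 146 CPM. Early response genes fell in 6 of 17 and rose in none. Egr1, an activity-induced factor, stood at 556 and 226 CPM in members, against 1084 and 919 CPM (log2 fold -1.43 ± 0.24, adjusted p = 0.000247, edgeR).

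Genes past the threshold were ranked if they had at least 20 CPM in the higher class and the same sign in both libraries. Among them, the lowest log2 fold was that of Col12a1, a collagen gene, at 14.1 and 7.10 CPM in members, against 56.4 and 64.5 CPM (-2.64 ± 0.34). Cnr1, the cannabinoid receptor gene, stood at 74.2 and 46.4 CPM in members, against 267 and 222 CPM (-2.07 ± 0.16). Among the 10 highest, Gda, the guanine deaminase gene, stood at 108 and 154 CPM in members, against 0 and 1.61 CPM.

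**Figure D4:**
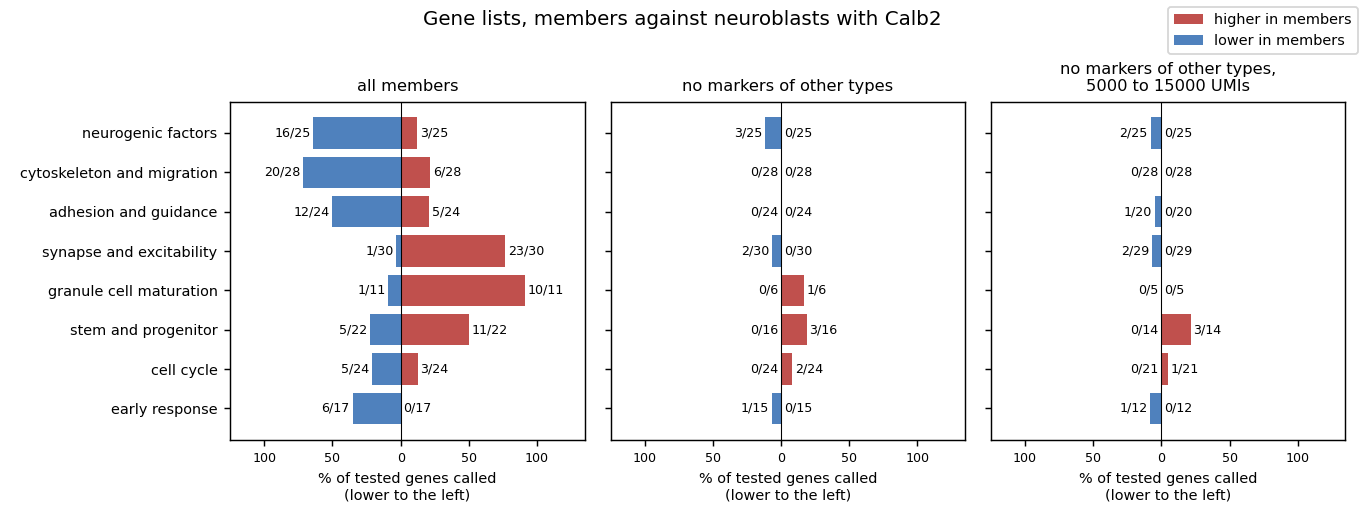
Share of tested genes of 8 lists that edgeR called higher (right) or lower (left) in members than in neuroblasts with Calb2, for all members, without cells with markers of other types, and the same within 5000 to 15000 UMIs, with counts beside each bar. The synapse list shows 23 of 30 higher over all members and 0 of 30 once marked cells are left out.

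Most of these calls were lost when cells with markers of other types were left out of every gated class, an alternative chosen after the data were seen. Cells left out had over 1 UMI of Calb1, Plk5, Rasgrf2 and Ntng1, over 2 of the interneuron or choroid plexus markers, or over 4 of the stem cell or oligodendrocyte markers. This kept 120 members in library 1 and 119 in library 2 (75.0% and 54.8%), against 97.8% and 95.6% of neuroblasts with Calb2. Kept members had medians of 3314 and 2989 UMIs, against 9029 and 7528 in kept neuroblasts with Calb2. Genes past the threshold were then 96 higher (0.927%) and 47 lower (0.454%) of 10353 tested (1.38% in all). Within 5000 to 15000 UMIs as well, which left 50 and 36 members, they were 35 higher (0.455%) and 50 lower (0.65%) of 7695 (1.1% in all). Of the 143 calls, 82 were also called in the same direction over all members and 9 in the opposite one. Fewer cells also entered these tests, and without the depth limit the kept members were shallower. The part of either in the counts of genes was not tested.

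In the lists, the synapse genes had 0 of 30 higher and 2 lower without the marked cells, the neurogenic factors 3 of 25 lower, and the cytoskeleton genes none of 28 in either direction. Slc17a7 then had a log2 fold of -0.20 and Snap25 of -0.12, on 5 and 4 UMIs of Slc17a7 and 56 and 54 of Snap25 in the kept members. Prox1 remained lower, at 712 and 674 CPM in the kept members, against 1099 and 1064 CPM in kept neuroblasts with Calb2. At matched depth, Prox1 stood at 769 and 739 CPM in members, against 1118 and 1084 CPM (log2 fold -0.56 ± 0.14).

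The kept members of matched depth are described by their values, because the cells were trimmed after values had been seen. Red cell genes still separated the classes in this setting, with 4 of 4 tested called higher in members (median log2 fold 2.78), against 5 of 5 in the trimmed cells of all depths and 0 of 5 over all members. The libraries went opposite ways for Hbb-bs, a haemoglobin gene, which stood at 6157 and 84.3 CPM in members, against 257 and 799 CPM. Neurod2, a basic helix-loop-helix factor downstream of Neurod1, stood at 222 and 152 CPM in members, against 282 and 269 CPM. Camk2b, a calcium-dependent kinase of synapses, stood at 71.1 and 61.6 CPM, against 137 and 129 CPM. Sema5a, a semaphorin that limits synapse formation by granule neurons, stood at 100 and 84.3 CPM, against 219 and 250.3 CPM, and Cntnap5a, of the neurexin superfamily, at 23.0 and 32.4 CPM, against 85.4 and 82.1 CPM. All 4 genes were lower in members in both libraries.

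Of the stem and progenitor list, 3 of 14 tested genes (Vim, Sox2 and Fabp7) were called higher in this setting and none lower, and of the cell cycle list 1 of 21 (Hmgb2). Sox2, a stem cell factor, stood at 64.8 and 136 CPM in members, against 40.0 and 33.3 CPM. Fabp7 stood at 48.1 and 94.0 CPM, against 26.3 and 21.5 CPM, and Vim, an intermediate filament gene, at 41.8 and 64.8 CPM, against 16.2 and 16.7 CPM. Hmgb2 stood at 98.3 and 201 CPM, against 82.5 and 86.1 CPM. Zic5, a zinc finger factor, stood at 60.6 and 38.9 CPM, against 7.69 and 6.09 CPM, on 29 and 12 UMIs in members. For Sox2, Fabp7, Vim and Hmgb2 the excess was larger in library 2, and for Zic5 in library 1. Sub-group 4 had Sox2 at 547 and 372 CPM, and the part of cells like those in these sums was not tested.

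**Figure D5:**
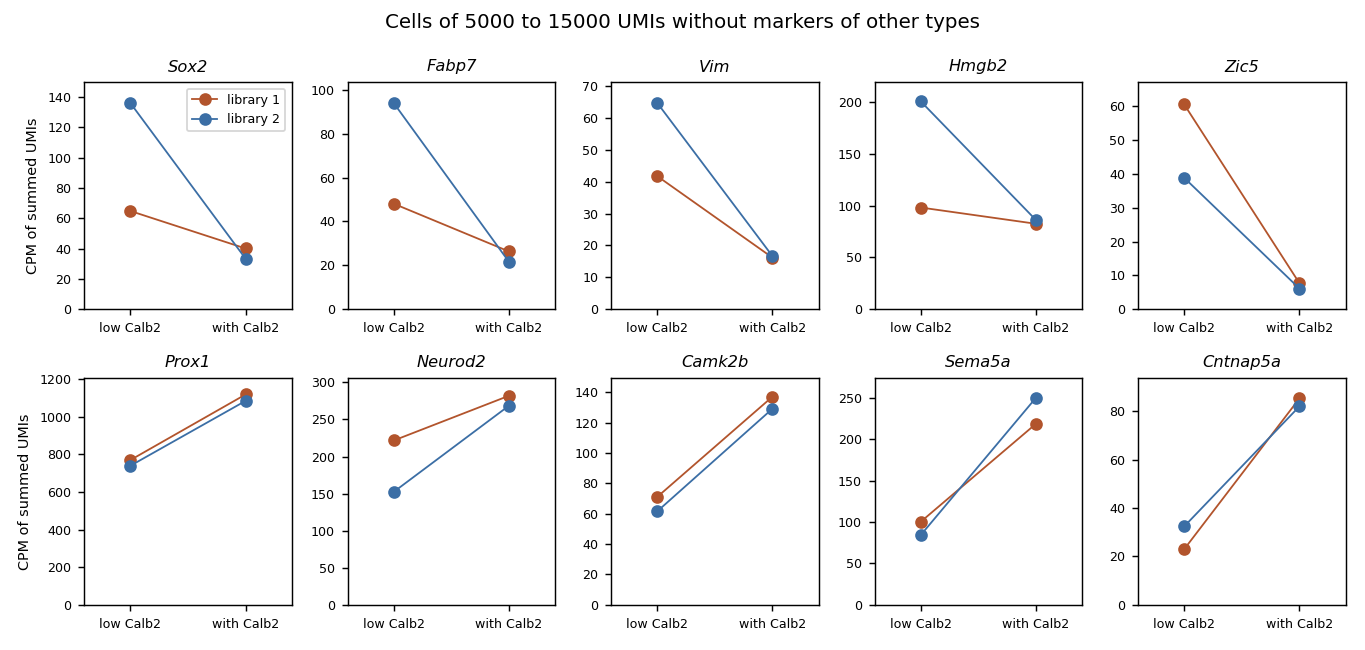
CPM of summed UMIs (vertical axes, linear, from 0) of 10 genes in members and in neuroblasts with Calb2, for cells of 5000 to 15000 UMIs without markers of other types, with 1 line per library. Sox2, Fabp7, Vim, Hmgb2 and Zic5 are higher in members in both libraries, and Prox1, Neurod2, Camk2b, Sema5a and Cntnap5a are lower in both.

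Eomes progenitors come before neuroblasts in the lineage, but no lineage order was tested in these cells. Against Eomes progenitors, 2640 of 12645 genes were higher in members (20.9%) and 2122 were lower (16.8%), 37.7% in all. The members here are the same as above, and the fit is shared. Synapse genes rose in 27 of 30 and fell in 1, and neurogenic factors fell in 18 of 25 and rose in 5. Neurod4, a basic helix-loop-helix factor of intermediate progenitors, stood at 6.68 and 4.26 CPM in members, against 44.4 and 37.1 CPM (log2 fold -2.93 ± 0.28, adjusted p = 8.66e-07, edgeR). Neurog2, a proneural factor, stood at 4.45 and 2.84 CPM, against 31.0 and 35.6 CPM. Tbr1, the T-box factor that follows Eomes in the lineage, stood at 46.7 and 38.3 CPM, against 119 and 115 CPM. Cell cycle genes fell in 9 of 24 and rose in 1, with the kinase gene Cdk6 at 93.5 and 61.0 CPM in members, against 216 and 185 CPM. Both libraries lay on the same side for each of these genes.

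Without cells with markers of other types, 59 genes were higher (0.57%) and 19 lower (0.184%) than in Eomes progenitors, of 10353 tested (0.753% in all). At matched depth 17 were higher (0.221%) and 10 lower (0.13%) of 7695 (0.351% in all). At matched depth Ccnd2, the cyclin of progenitors, stood at 165 and 237 CPM in members, against 418 and 462 CPM. Neurod2 stood at 222 and 152 CPM in members, against 139 and 113 CPM, and Grin2b, an NMDA receptor subunit of young neurons, at 186 and 126 CPM, against 98.3 and 103 CPM. Dcc, a netrin receptor gene, stood at 96.2 and 84.3 CPM, against 171 and 152 CPM. Neurod2 in these members thus lay between Eomes progenitors and neuroblasts with Calb2 in both libraries.

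Against granule neurons, the mature cells of the granule lineage, 1537 of 12638 genes were higher in members (12.2%) and 1041 were lower (8.24%), 20.4% in all. Neurogenic factors rose in 15 of 24 and fell in 1, with Sox4, a close relative of Sox11, at 1518 and 770 CPM in members, against 14.2 and 22.8 CPM (log2 fold 5.77 ± 0.30, adjusted p = 7.19e-09, edgeR). Its log2 fold was 4.95 without library 1 and 6.68 without library 2. Stmn1, a microtubule-destabilising protein, stood at 2264 and 1584 CPM in members, against 360 and 243 CPM. Synapse genes fell in 18 of 28 and rose in 1. Stem and progenitor genes rose in 21 of 22, and early response genes in 8 of 17. Granule neurons were chosen to lie outside the gate and to carry Snap25 with Syt1. The directions of neurogenic and synapse genes cannot be told apart from that choice. Granule neurons were also deeper than members, with medians of 20287.5 and 18626 UMIs. Without cells with markers of other types, 2480 genes were higher (24.0%) and 2485 lower (24.0%) of 10350 (48.0% in all), more than over all members. That setting left out members with granule neuron markers and kept every granule neuron. The larger count cannot be told apart from this choice of cells. With only members and granule neurons in the fit, 1191 genes passed.

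Phf2 (ENSMUSG00000038025, minus strand of chromosome 13, 48801750 to 48871119), the gene deleted in the cKO, stood at 18.5 and 12.3 CPM in members on 25 and 26 UMIs, against 14.6 and 5.14 CPM in neuroblasts with Calb2. Its log2 fold was 0.69 ± 0.30 and did not pass the test (adjusted p = 0.0816, edgeR). The fold was 1.22 without library 1 and 0.25 without library 2. In 2 alternatives Phf2 passed, at a log2 fold of 0.84 for members with Calb2 at 0 against neuroblasts with at least 4 Calb2 UMIs (adjusted p = 0.0374, edgeR), and of 1.42 without cells with markers of other types (adjusted p = 0.0416, edgeR, on 17 and 14 UMIs in members). At matched depth as well it did not (log2 fold 1.34, adjusted p = 0.207), and over all of its alternatives with a test the adjusted p lay between 0.0374 and 0.398. Free RNA held Phf2 at 17.9 and 13.9 CPM. Over all members its relatives in the KDM7 family did not pass, with Kdm7a at 133 and 109 CPM in members, against 99.9 and 101 CPM, and Phf8 at 17.8 and 19.4 CPM, against 14.3 and 18.0 CPM. The libraries read only the 3′ ends of transcripts, so a deleted exon upstream may go unseen, and these levels check no label.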

How the data were processed

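Single-cell RNA-seq libraries of the dentate gyrus (10x 3′ chemistry, per the labels' protocols) were deposited by the authors as 1 matrix of raw UMI counts, unfiltered and without cell annotation. Cell Ranger 4.0.0, Scanpy 1.7.0 and mm10 are named in the submitters' processing notes. The barcode suffix gave library 1 and library 2 (102897659 and 107266420 UMIs), and no label ties it to a genotype. Barcodes were kept as cells from 1000 UMIs and 500 genes upward, with mitochondrial UMIs not over 20%. The members, the gene lists and the tests were chosen with earlier results of these data known.

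UMIs were summed per library for 6 classes (12 sums, 5 residual degrees of freedom) and tested with edgeR 4.0.16 (R 4.3.3), 2-sided quasi-likelihood test, filterByExpr, TMM and library as a block, with Benjamini-Hochberg adjustment over all tested genes. The 27 genes that chose the gated classes were not tested. Prox1, Calb1, Plk5, Rasgrf2, Ntng1, Snap25 and Syt1, which chose granule neurons, were also untested against granule neurons. Genes used to leave out cells with markers of other types were untested in those settings. CPM is UMIs per 1000000 of the sum. On simulated data for members against neuroblasts with Calb2 (12602 genes), 39 of 50 genes at a log2 fold of -1, 48 of 50 at 1, and 4 of 12402 unchanged genes were called. Changed genes were drawn without those of low count, and all genes had the same spread. Simulated members took the mean levels of neuroblasts with Calb2. The rates thus do not cover low-count genes or a mixture of cell types.

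Members were clustered with Leiden at resolution 0.5 (scanpy 1.11.5) on 1994 variable genes, 20 components and 15 neighbours. Scrublet was run per library. From each list, up to 4 genes with the smallest adjusted p could be named. Over all tested genes, the 10 highest and 10 lowest folds past the threshold could also be named. These needed at least 20 CPM in the higher class and the same sign in both libraries. Alternatives were DESeq2 1.42.0, total-count scaling, no filter on low counts, no block, 2 classes only, other limits on cells, and each library left out. Folds with a library left out are differences of log2 CPM within the other library, with a small count added. Values of some genes are not reported here.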

Additional observations from a re-analysis of the deposited data

How the results depend on the processing

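Against neuroblasts with Calb2, the 4404 genes past the threshold became 866 among cells of 5000 to 15000 UMIs, 143 without cells with markers of other types (marked cells) and 85 with both limits, and the share of calls that were higher in members became 69.5%, 67.1% and 41.2%, beside 57.6% over all members. Against Eomes progenitors, 4762 became 639, 78 and 27, with 83.1%, 75.6% and 63.0% higher, beside 55.4%. Against granule neurons, 2578 became 4965 without marked cells (49.95% higher, beside 59.6%) and 1191 with only those 2 classes in the fit. Granule neurons themselves were not trimmed. In the other settings, DESeq2 among them (3217, 3428 and 1960 genes), counts stayed within 1.5 times. The members' share of kept cells in library 1 became 1.39% with a gate sum of at least 10, 1.41% with Calb2 at 0 and 1.45% without marked cells. In library 2 it became 1.59%, 2.08% and 1.42%, and 2.18% with at most 10% mitochondrial UMIs. Against neuroblasts with Calb2 without marked cells, the log2 fold turned to -0.577 for Bcl11b, -0.003 for Slc12a5, -0.198 for Slc17a7, -0.119 for Snap25, -1.719 for Ntng1, -1.781 for Calb1, -0.251 for Icam5, -0.278 for Ncdn, 0.045 for Cdk4, 0.094 for Cdkn1b, -1.795 for B230209E15Rik, -0.009 for Syt13. Against neuroblasts with Calb2 without marked cells at matched depth, the log2 fold turned to -0.544 for Bcl11b, 0.047 for Kif21b, -0.132 for Snap25, -1.599 for Ntng1, -1.641 for Calb1, -3.518 for Icam5, -0.154 for Ncdn, -0.519 for Hopx, 0.01 for Cdk4, 0.164 for Cdkn1b, -1.735 for B230209E15Rik. Against Eomes progenitors without marked cells, the log2 fold turned to -0.629 for St18, 0.054 for Stmn1, -1.919 for Slc12a5, -0.529 for Slc17a7, -1.257 for Calb1, -3.028 for Ntng1, 0.182 for Dusp1, -0.009 for Neto1, -1.93 for Cpne6, -0.03 for A2ml1. Against Eomes progenitors without marked cells at matched depth, the log2 fold turned to -0.356 for St18, 0.032 for Stmn1, -0.349 for Dlg2, -0.201 for Slc17a7, -2.541 for Icam5, -1.147 for Calb1, -2.533 for Ntng1, 0.271 for Dusp1, -0.04 for B230209E15Rik, -1.747 for Cpne6. Against Eomes progenitors at matched depth alone, the log2 fold turned to 0.163 for Klf6, 0.236 for Dusp1. Against granule neurons without marked cells at matched depth, the log2 fold turned to 1.362 for Kdm7a (adjusted p = 0.0117, edgeR). Against granule neurons at matched depth alone, the log2 fold turned to 1.295 for Kdm7a (adjusted p = 0.0216, edgeR). Of the genes whose fold turned, only Kdm7a was called in its new direction. Its reference at matched depth was 5 granule neurons in library 1 and 12 in library 2. Over all members, Kdm7a was not called against granule neurons. Granule neuron markers, Calb1 and Ntng1 among them, and the stem cell marker Hopx were used to leave cells out in these settings. Their folds there follow from that choice. For the other genes the cause was not tested. Without marked cells, 70 named results kept direction and side of the threshold, and 62 lost the call. Another 22 turned in sign and were not called there, and 1 gained the call (Phf2). With DESeq2, 154 kept theirs and 7 lost the call. With either library left out, which gives folds and no test, no named result reversed, but 85 of 161 moved by more than the standard error of their fold without library 1 and 94 of 161 without library 2. The comparisons were paired by library through the block in the test, and without it 3 named results lost their call. Depth limits the low genes: Phf2 had 25 and 26 UMIs in members. Several genes whose fold turned were near 0 in the reference even before cells were left out. Eomes progenitors held 1 and 1 UMIs of Slc12a5, 0 and 2 of Cpne6, and 0 and 0 of A2ml1 and Neto1. Neuroblasts with Calb2 held 3 and 9 UMIs of Icam5. Others were not near 0, such as Stmn1 with 27292 and 18850 UMIs in Eomes progenitors. The size of a turned fold is not reliable where UMIs are so few.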
